A study of Mus musculus with 24 samples.

Results

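The transcripts followed here are those of 29 genes that make cholesterol and fatty acids or control that synthesis, out of 49022 gene IDs that both deposited count tables hold. They were chosen by name from the pathway: 7 early sterol genes (acetyl-CoA to farnesyl diphosphate), 11 late sterol genes (squalene to cholesterol), 6 genes of the SREBP regulators with a sterol carrier, and 5 fatty acid genes. Polyadenylated RNA was sequenced in bulk from lung macrophages sorted by surface SiglecF and CD11b from mice given bleomycin, a drug used to injure the lung and model fibrosis, or PBS, into the trachea. CD11b+ SiglecF- cells are called interstitial macrophages (IMs) and CD11b- SiglecF+ cells alveolar macrophages (AMs). The bleomycin dose was 3 µg per g of body weight.

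The 24 libraries formed 8 groups of 3. Wild-type C57BL/6J mice gave IMs at day 7 after PBS and at day 7 after bleomycin, with no reporter gate. Spp1-EGFP knock-in (KI) reporter mice, in which EGFP reports the osteopontin gene Spp1, gave the other 6 groups: EGFP- IMs at day 7 and EGFP+ IMs at days 7 and 14 after bleomycin, and EGFP+ AMs of PBS mice (day 7) and of bleomycin mice (days 14 and 30). All AM groups were therefore sorted as EGFP+, the PBS group included, and no reporter IM group received PBS. The labels do not say whether the 3 libraries of a group came from separate mice, so p-values measure only the spread between these libraries. In bulk RNA, more cells of one type and more RNA per cell cannot be told apart.

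Cells build cholesterol from acetyl-CoA through mevalonate, farnesyl diphosphate, squalene and lanosterol. The transcription factor SREBP-2, encoded by Srebf2, drives most of these enzymes, and SREBP-1, encoded by Srebf1, drives fatty acid enzymes. Both are held in the endoplasmic reticulum by Scap and the Insig proteins while membrane sterol is plentiful, and are released when it is scarce. AMs take up and clear surfactant, a lipid film that contains cholesterol, and the LXR nuclear receptors raise sterol export when oxysterols accumulate.

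Because many of these genes moved together in AMs, the bases around their start sites were searched for the letters of 3 factor motifs. RefSeq promoters on GRCm38.p6, from 250 bases before to 50 bases after a start site, were found for 23 of the 29 genes. TCACNCCAC, a spelling of the sterol regulatory element bound by SREBPs, was searched on both strands and occurred in 1 of these 23 genes (4.35%), Hmgcs1, against 1.44% of all 27025 genes with a promoter. CCAAT, the NF-Y box, occurred on either strand in 19 of 23 (82.61%) against 41.06% of all genes. CACGTG, an E-box that reads alike on both strands, occurred in 5 of 23 (21.74%) against 8.09%. In Hmgcs1 the sterol element shares no base with a match of the other 2 motifs. These are letter matches and no binding was measured. The 4 promoters below are shown because they carry the sterol element match (Hmgcs1), the E-box (Insig1) or several NF-Y boxes (Mvk and Msmo1) and belong to genes whose transcripts are described in the AM results. Capitals mark the motif matches, and each runs 5′ to 3′ on the strand of the gene.
Hmgcs1, chr13:119690101-119690400, plus strand: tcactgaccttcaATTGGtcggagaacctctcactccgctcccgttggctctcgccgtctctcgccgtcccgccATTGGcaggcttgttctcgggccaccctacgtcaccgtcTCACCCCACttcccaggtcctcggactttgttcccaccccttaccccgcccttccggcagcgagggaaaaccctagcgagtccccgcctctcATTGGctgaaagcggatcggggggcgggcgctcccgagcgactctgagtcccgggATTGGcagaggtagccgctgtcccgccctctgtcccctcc
Mvk, chr5:114444019-114444318, plus strand: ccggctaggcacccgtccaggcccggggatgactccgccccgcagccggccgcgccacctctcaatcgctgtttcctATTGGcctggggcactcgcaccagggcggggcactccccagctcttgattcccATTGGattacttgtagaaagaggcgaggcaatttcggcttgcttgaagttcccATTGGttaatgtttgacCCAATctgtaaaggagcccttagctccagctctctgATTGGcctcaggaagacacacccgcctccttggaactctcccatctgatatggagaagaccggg
Msmo1, chr8:64733529-64733828, minus strand: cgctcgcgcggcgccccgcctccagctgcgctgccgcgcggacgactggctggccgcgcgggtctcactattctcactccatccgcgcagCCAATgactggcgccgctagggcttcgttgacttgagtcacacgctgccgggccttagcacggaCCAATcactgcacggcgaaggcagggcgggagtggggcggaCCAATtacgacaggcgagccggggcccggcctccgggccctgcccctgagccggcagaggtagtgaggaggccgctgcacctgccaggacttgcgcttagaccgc
Insig1, chr5:28071162-28071461, plus strand: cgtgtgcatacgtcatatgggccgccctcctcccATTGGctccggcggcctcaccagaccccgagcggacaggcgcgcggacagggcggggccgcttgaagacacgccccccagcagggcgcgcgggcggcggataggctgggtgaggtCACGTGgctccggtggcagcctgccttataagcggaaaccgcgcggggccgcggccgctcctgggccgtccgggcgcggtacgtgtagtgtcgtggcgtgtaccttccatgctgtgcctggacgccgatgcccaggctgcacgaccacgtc
The sterol element match of Hmgcs1 begins 137 bases before the start site, and 4 NF-Y boxes lie around it. Mvk holds 5 NF-Y boxes, Msmo1 holds 3, and Insig1 holds 1 NF-Y box and 1 E-box.

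Libraries held 13450053 to 24580620 counts, of which the 29 genes took 0.123% to 0.295%. Levels are counts scaled to the library total (CPM), and group values are means ± SD with n = 3 libraries. The sort genes followed the gates: Siglecf ranged from 2.43 to 25.7 CPM in IM libraries and from 108 to 428 CPM in AM libraries, and Itgam, which encodes CD11b, from 151 to 406 CPM and from 5.65 to 30.9 CPM in turn. Siglecf was 406 to 428 CPM in AMs after PBS, 108 to 133 CPM at day 14 and 132 to 139 CPM at day 30. Spp1 was 191 to 209.6 CPM in the EGFP+ AMs after PBS and at least 3554 CPM in every library from an EGFP+ gate after bleomycin. Library 1 of the EGFP+ IMs at day 14 stood apart from its 2 partners, with Itgam at 336 against 184 and 151 CPM, and results that rest on it are given with and without it. The heat map of all members shows the AM groups after bleomycin at the high end for nearly every sterol gene.

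**Figure D1:**
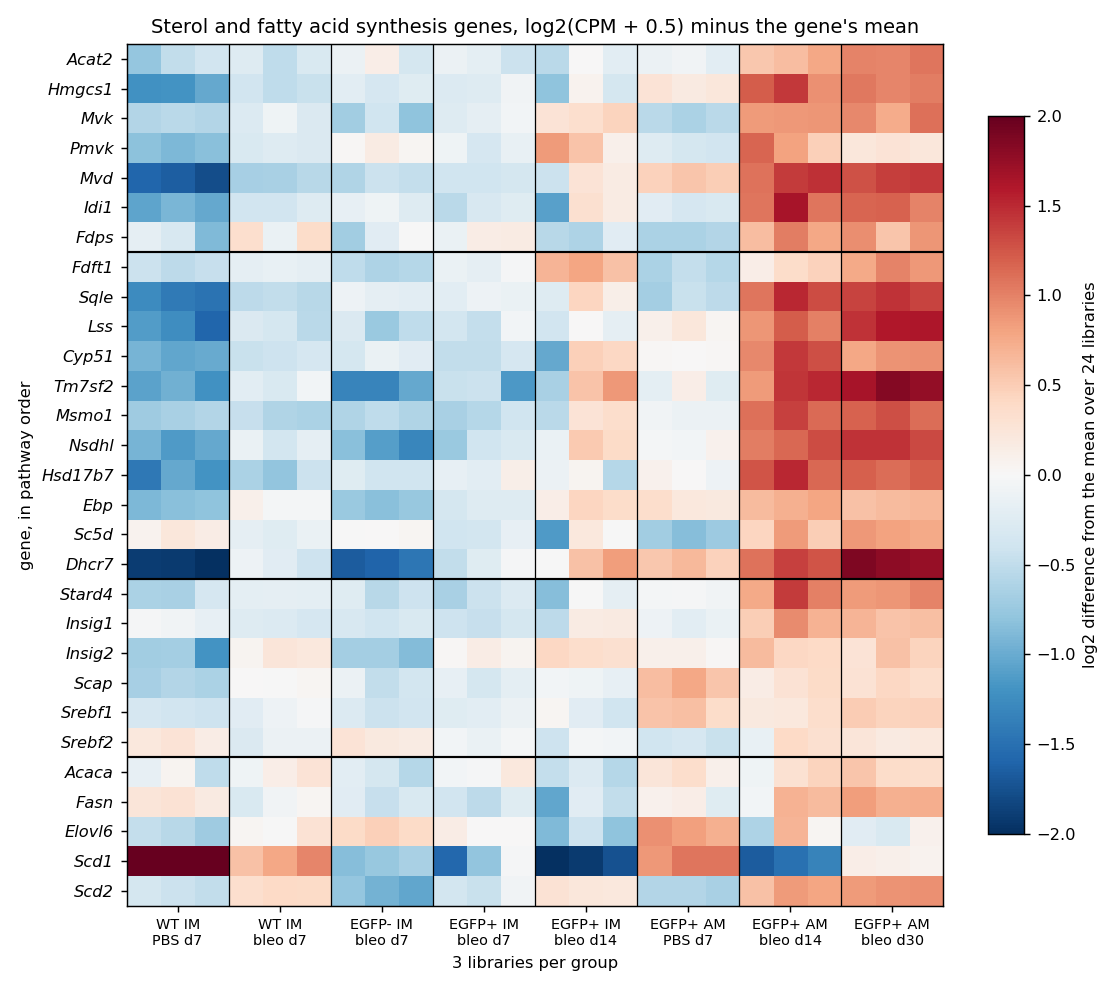
Heat map of log2(CPM + 0.5) minus each gene's mean over 24 libraries, for the 29 genes (rows, in pathway order) and 3 libraries per group (columns); black lines part the 4 gene groups and the 8 sample groups. AMs at days 14 and 30 are red across the sterol rows, whereas Scd1 is highest in wild-type IMs after PBS.

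All 18 sterol genes measured rose in EGFP+ AMs after bleomycin. All 7 early and all 11 late sterol genes were higher at day 14 than after PBS, and all 18 were higher at day 30. The summed early sterol level went from 279 ± 3.75 CPM after PBS to 571 ± 57.6 CPM at day 14 and 526 ± 6.17 CPM at day 30, and the late sterol sum from 446 ± 6.76 to 980.0 ± 112 and 1037 ± 32.4 CPM. Over the 29 genes, 24 were called higher and 1 lower at day 14, and 25 higher and 2 lower at day 30, at an adjusted p under 0.05. Among all 14685 genes tested, 27.3% were called higher and 27.6% lower at day 14, and 24.8% higher and 23.2% lower at day 30. The median log2 fold change of the 29 genes was 1.12 and 1.08, against -0.0103 and 0.0210 over all genes. The early genes had medians of 1.36 and 1.28, the late genes 1.41 and 1.55.

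The PBS AMs, taken at day 7, stand in one deposited table and the day 14 and day 30 AMs in the other. Treatment, day and table therefore cannot be told apart in these 2 comparisons, which also share their controls. Among the 24 members whose coordinates are the same in both tables, 20 were higher at day 14, and 21 higher and 1 lower at day 30. No called member changed direction under another scaling. Scaling by library totals alone moved the median of all genes by -0.184 at day 14 and by -0.114 at day 30, and cut the share of higher genes among all calls from 49.7% to 32.2% and from 51.7% to 39.1%. It still left 24 members higher at each day.

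**Figure D2:**
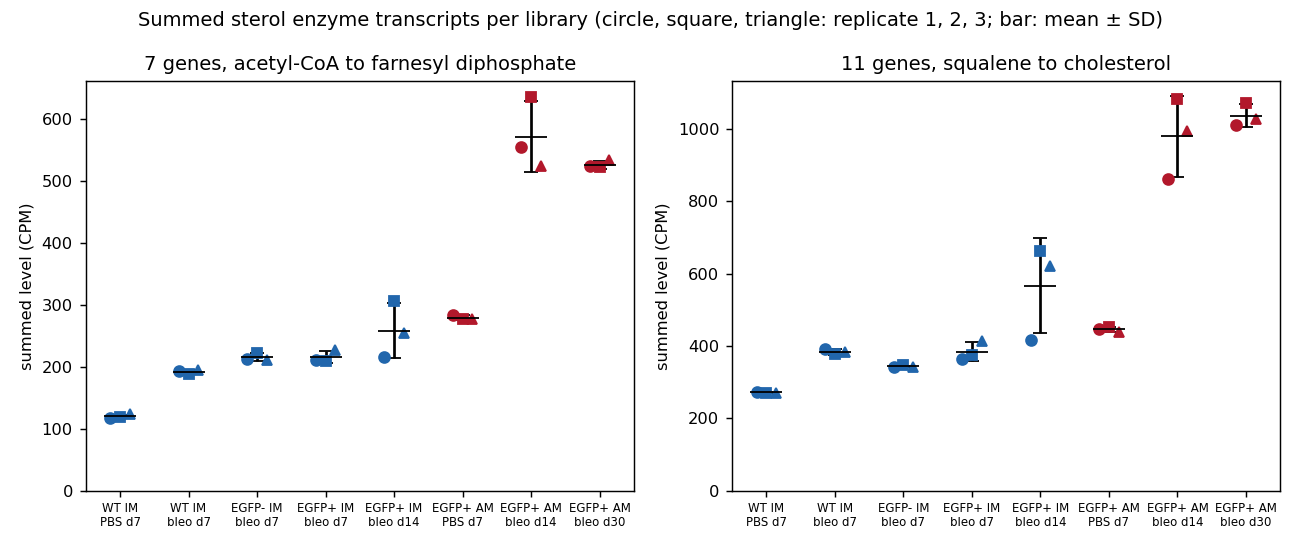
Summed CPM of the 7 early (left) and 11 late (right) sterol genes in every library; symbols are replicates 1 to 3, bars are means ± SD, blue marks IMs and red AMs. AMs after bleomycin, at 522 to 635 CPM (early) and 861 to 1084 CPM (late), lie above all other libraries.

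Squalene epoxidase, encoded by Sqle (ENSMUSG00000022351, chromosome 15, 59315077 to 59331192), catalyses a rate-limiting oxygen-dependent step of the sterol branch. Sqle was 28.4, 33.6 and 31.7 CPM in PBS AMs, then 96.98, 132 and 114 CPM at day 14 and 118, 126 and 118 CPM at day 30. Every library after bleomycin was above every PBS library, and the groups at the 2 later days overlapped. The log2 fold change was 2.05 ± 0.10 SE, adjusted p = 4.30e-11, at day 14, and 2.06 ± 0.10 SE, adjusted p = 4.50e-11, at day 30. It was the largest among the 11 late genes at each day.

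In the mevalonate part, Hmgcs1 (ENSMUSG00000093930, chromosome 13, 119690462 to 119708086 in one table), the synthase that makes HMG-CoA and the gene whose promoter holds the sterol element letters, was 117, 109 and 114 CPM with PBS, then 224, 260.1 and 183 CPM at day 14 and 202, 191 and 197 CPM at day 30. The PBS libraries were lowest, without overlap (log2 change 1.15 ± 0.09 SE, adjusted p = 2.32e-08 at day 14, log2 change 0.91 ± 0.09 SE, adjusted p = 4.63e-07 at day 30). The table of the later days also lists Gm48342, an antisense gene that shares 12.12% of the exon bases of Hmgcs1, at 59.6 to 80.4 CPM at day 14. The strand setting of the counting is not given in the sources used here, so its reads and those of Hmgcs1 cannot be told apart. Mvk, the mevalonate kinase gene, stood at 11.04, 10.4 and 11.03 CPM with PBS, then 29.9, 30.1 and 30.4 CPM at day 14 and 32.2, 27.6 and 35.5 CPM at day 30. The 6 bleomycin libraries lay close together and far above PBS (log2 change 1.66 ± 0.11 SE, adjusted p = 2.10e-09 at day 14, log2 change 1.67 ± 0.11 SE, adjusted p = 2.04e-09 at day 30). Idi1, which isomerises isopentenyl diphosphate, was 23.1, 21.3 and 21.8 CPM with PBS, then 57.2, 86.5 and 57.8 CPM at day 14 and 61.1, 62.2 and 54.6 CPM at day 30, with library 2 of day 14 the highest (log2 change 1.78 ± 0.13 SE, adjusted p = 8.21e-09; log2 change 1.54 ± 0.13 SE, adjusted p = 5.21e-08). Acat2, Pmvk and Mvd, which act around Hmgcs1 and Mvk, rose with log2 fold changes of 0.98, 1.36 and 1.01 at day 14. Acat2 has a near copy, Acat3, at 20.2 to 25.8 CPM after PBS and 15.2 to 24.4 CPM at day 14, between which reads may be split. Fdps, the farnesyl diphosphate synthase gene, rose at both days too, but held only 0.244 to 0.274 CPM after PBS and 1.28 to 1.86 CPM at day 14, and 26.71% of its exon bases are shared with Gm43738 on the same strand.

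The enzymes after squalene followed. Cyp51, the lanosterol demethylase gene, was 113, 113 and 113 CPM with PBS, then 218, 299 and 274 CPM at day 14 and 191, 209 and 210.4 CPM at day 30. The 3 PBS values were nearly equal and no later library came near them (log2 change 1.41 ± 0.10 SE, adjusted p = 2.68e-09 at day 14, log2 change 0.97 ± 0.10 SE, adjusted p = 3.03e-07 at day 30). Msmo1, a methylsterol oxidase gene, was 63.7, 61.1 and 61.4 CPM after PBS and 144, 172 and 146 CPM at day 14 (log2 change 1.49 ± 0.08 SE, adjusted p = 1.42e-10), and 152, 163 and 145 CPM at day 30. Sc5d, a sterol desaturase gene, went from 21.5, 19.4 and 21.1 CPM to 47.8, 63.8 and 49.7 CPM at day 14 and 64.5, 62.2 and 60.2 CPM at day 30 (log2 change 1.56 ± 0.10 SE, adjusted p = 1.37e-09; log2 change 1.71 ± 0.10 SE, adjusted p = 4.52e-10). Hsd17b7, Nsdhl, Tm7sf2 and Lss, which reduce, demethylate or cyclise sterol intermediates, rose by 1.51, 1.38, 1.63 and 1.12 on the log2 scale at day 14, each without overlap with PBS. The smallest late-pathway changes were those of Ebp, a sterol isomerase gene, at 0.65 ± 0.08 SE and 0.49 ± 0.08 SE. Fdft1, the squalene synthase gene, rose by 1.08 and 1.56. It shares 18.31% of its exon bases with Ctsb, a cathepsin gene on the opposite strand, which stood at 1616 to 1629 CPM with PBS, then 2793 to 2903 CPM at day 14 and 4174 to 4319.8 CPM at day 30. The part of Ctsb reads in the Fdft1 change was not tested. Tm7sf2, Scap and Idi1 share 12.08%, 13.23% and 9.22% of their exon bases with other listed genes.

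Among the regulators, the changes were smaller and uneven. Insig1, which retains SREBPs and is itself a target of them, was 153, 141 and 149 CPM with PBS, then 230.0, 313 and 265 CPM at day 14 and 260.2, 243 and 247 CPM at day 30 (log2 change 1.05 ± 0.09 SE, adjusted p = 5.28e-08 at day 14). Srebf2 was 146, 152 and 141 CPM after PBS and 174, 253 and 239 CPM at day 14, with library 1 the lowest of the later group (log2 change 0.79 ± 0.11 SE, adjusted p = 8.89e-06). Stard4, a cytosolic sterol carrier gene, rose by 1.31 and 1.08, and Insig2 by 0.60 and 0.49. Scap was 93.1 ± 7.31 CPM after PBS and 71.8 ± 5.73 CPM at day 14 and was not called (log2 -0.19 ± 0.09 SE, adjusted p = 0.0742). It passed as lower with library totals alone (adjusted p = 0.00135), with upper-quartile factors (adjusted p = 0.0290), without the low-count filter (adjusted p = 0.0465) and without day 14 library 3 (adjusted p = 0.0218). Srebf1, at 118 ± 9.78 and 97.9 ± 6.17 CPM, was not called either (log2 -0.08 ± 0.08 SE, adjusted p = 0.439), except with library totals alone, where it was lower.

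The 5 fatty acid genes did not move as one. Scd2 (ENSMUSG00000025203, chromosome 19, 44293676 to 44306864 in one table), a stearoyl-CoA desaturase gene, was 64.1, 64.03 and 61.01 CPM with PBS, then 144, 175 and 166 CPM at day 14 and 174, 180.0 and 183 CPM at day 30. It rose without overlap (log2 change 1.55 ± 0.08 SE, adjusted p = 9.12e-11 at day 14, log2 change 1.62 ± 0.08 SE, adjusted p = 5.45e-11 at day 30). Scd1 (ENSMUSG00000037071, chromosome 19, 44394451 to 44407709 in one table), its neighbour and paralogue, went the other way, at 99.9, 114 and 115 CPM with PBS, then 16.8, 19.03 and 21.2 CPM at day 14 and 59.6, 58.2 and 57.2 CPM at day 30. It fell at both days (log2 change -2.34 ± 0.10 SE, adjusted p = 5.28e-12; log2 change -0.80 ± 0.09 SE, adjusted p = 1.62e-06), and day 30 lay between the other groups without overlap. Elovl6, a fatty acid elongase gene, was 20.1, 18.8 and 17.4 CPM with PBS, then 6.60, 16.95 and 10.7 CPM at day 14 and 8.86, 8.41 and 11.1 CPM at day 30. It was called lower at day 30 (log2 -0.88 ± 0.24 SE, adjusted p = 0.00844), while at day 14 (log2 -0.54 ± 0.24 SE, adjusted p = 0.0680) it was called only in some alternatives, among them the one without day 14 library 2 (log2 -0.91). Fasn, the fatty acid synthase gene, was higher at day 30 (log2 0.87 ± 0.17 SE, adjusted p = 0.00142). At day 14 its call (log2 0.65 ± 0.17 SE, adjusted p = 0.00767) was lost without day 14 library 2 (log2 0.53, adjusted p = 0.0560). Acaca, the acetyl-CoA carboxylase gene, was called at day 30 (log2 0.31 ± 0.12 SE, adjusted p = 0.0408), and lost that call without any 1 of 5 of the 6 libraries compared, with adjusted p values of 0.0571 to 0.159. At day 14 (log2 0.18 ± 0.12 SE, adjusted p = 0.204) it was called only without day 14 library 1, at an adjusted p of 0.0114.

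Other cell types and states moved beside these values, and their part was not tested. Of 11 lung epithelial markers, 9 of 10 tested were lower at day 14, with a summed level of 325 to 337 CPM with PBS, then 23.3 to 23.99 CPM at day 14 and 108 to 161 CPM at day 30. Epcam alone had a mean of 182 CPM after PBS and 18.3 CPM at day 14. Scd1 had the same order of groups as this sum, and so did the B cell sum given next. The 8 B cell markers summed to 1704 to 1928, 148 to 162 and 1155 to 1504 CPM, and all 8 were lower at day 14. Of 10 IM or monocyte markers, 7 were higher at each day, and their sum was 2600.0 to 2903 CPM with PBS, then 5216 to 5875 CPM at day 14 and 2065 to 2431 CPM at day 30. Fibroblast markers summed to 16.4 to 19.6, 7.21 to 14.1 and 94.9 to 102 CPM, with 6 of 7 tested higher at day 30, and T and NK cell markers to 25.3 to 35.8, 12.9 to 24.9 and 59.4 to 65.9 CPM, also with 6 of 7 higher at day 30. The 12 AM markers summed to 18914 to 20405 CPM after PBS and 16256 to 26879 CPM at day 14, with 6 lower and 2 higher. Neutrophil markers summed to 133 to 207, 91.8 to 111 and 524 to 611 CPM, and Camp and Ly6g were at 0 at day 14. Cell cycle genes, at 498 to 501 CPM after PBS and 491 to 530.0 CPM at day 14, had 5 of 10 higher. Dissociation stress genes stood at 3289.5 to 3380.2, 2997 to 3685 and 7504 to 7568 CPM in the same order, with 6 of 10 lower and 2 higher at day 14 and 4 higher and 2 lower at day 30.

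**Figure D3:**
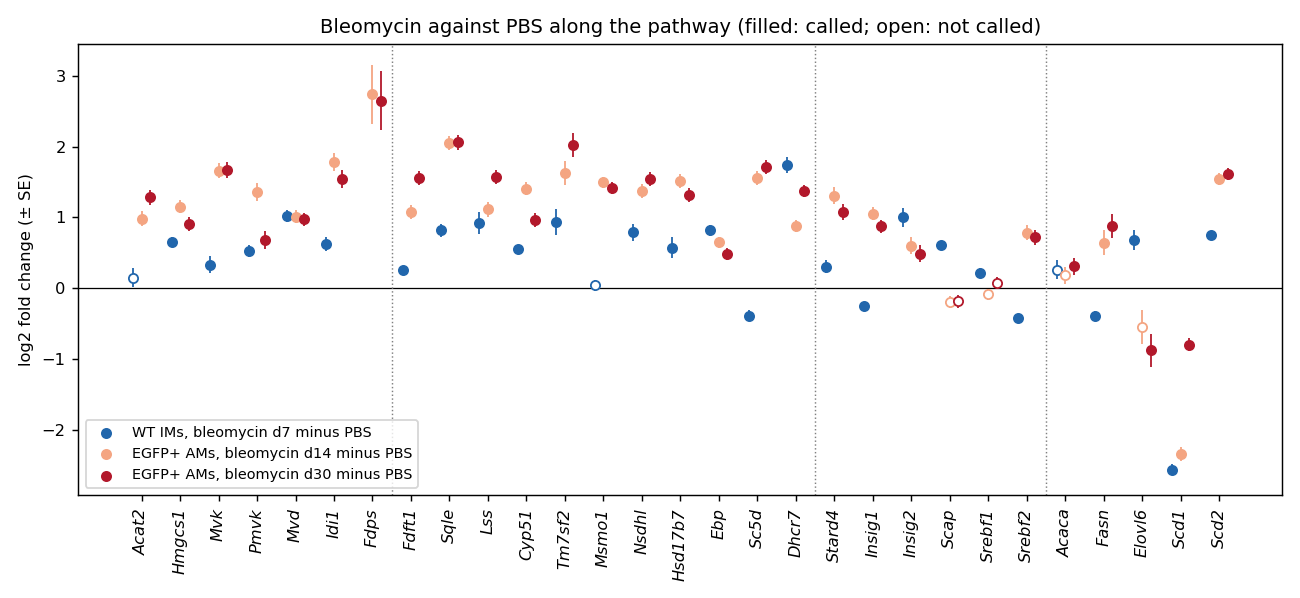
Log2 fold change ± SE of each of the 29 genes, bleomycin minus PBS, in wild-type IMs at day 7 (blue) and EGFP+ AMs at day 14 (orange) and day 30 (dark red); filled points were called and open points were not, and dotted lines part the 4 gene groups. Every AM point of the sterol genes lies above 0, and Scd1 lies below 0 in all 3 comparisons.

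Other lipid genes, which are not among the 29, were read in the same AM libraries. They were chosen with earlier results of these data known, so they are no independent check. Of 12 further lipid synthesis genes tested, 11 were higher and 1 lower at day 14, and 9 higher and 1 lower at day 30. Among those with the smallest p at day 14 were Fads1 and Fads2, the fatty acid desaturase genes of polyunsaturated lipid synthesis (log2 2.25 ± 0.10 SE and 3.88 ± 0.24 SE) and Mid1ip1 (log2 1.22 ± 0.09 SE). Of 9 genes that process SREBPs or degrade sterol enzymes, 4 were higher at day 14. Of 8 LXR receptors and targets, 2 were higher and 3 lower at each day, and the sterol exporter genes Abcg1 and Abca1 were among the lower ones (log2 -1.12 ± 0.07 SE and -1.19 ± 0.13 SE at day 14; -0.89 ± 0.07 SE and -1.13 ± 0.13 SE at day 30). The summed LXR list was 2558 to 2719 CPM with PBS, then 1435 to 1569 CPM at day 14 and 1675 to 1742 CPM at day 30.

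Between days 14 and 30, both in one table, most members in AMs were not called. Of the 29 genes 5 were higher and 3 lower at day 30, and 21 were not called, against 19.6% and 18.7% of 14685 genes, and the median was 0.00497 (all genes 0.0123). The count lower ranged from 2 to 7 when 1 library was left out, so no difference from all genes is read from it. With library totals alone or upper-quartile factors the share of higher genes among all calls went from 51.2% to 62.4% or 62.7%. Scd1 changed most (log2 1.54 ± 0.10 SE, adjusted p = 4.96e-09). Dhcr7, whose reductase makes cholesterol from 7-dehydrocholesterol, was 70.1, 85.8 and 78.9 CPM at day 14 and 121, 114 and 111 CPM at day 30, without overlap (log2 0.49 ± 0.09 SE, adjusted p = 2.56e-04). Lss and Fdft1 were higher too (log2 0.45 ± 0.10 SE and 0.48 ± 0.10 SE). Pmvk, the phosphomevalonate kinase gene, was 89.1, 69.6 and 55.6 CPM at day 14 and 46.7, 47.8 and 46.5 CPM at day 30 (log2 -0.67 ± 0.12 SE, adjusted p = 4.78e-04). Cyp51 was lower (log2 -0.44 ± 0.09 SE, adjusted p = 0.00150), but not with all libraries in 1 fit (adjusted p = 0.176). The calls of Acat2 and Hmgcs1 (log2 0.30 and -0.24) were each lost without any 1 of 5 of the 6 libraries, with adjusted p values of 0.0503 to 0.0998 for Acat2 and 0.0591 to 0.171 for Hmgcs1. Without day 14 library 1, whose summed late sterol level was the lowest of its group at 861 CPM, 7 members were lower at day 30. The marker lists differed as well: fibroblast markers (7 of 7 tested), B cell markers (8 of 8) and neutrophil markers (8 of 9) were higher at day 30, and their part was not tested.

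In wild-type IMs at day 7, most sterol genes were higher after bleomycin than after PBS. Of the 6 regulators 4 were higher (Insig2, Scap, Stard4 and Srebf1) and 2 lower (Srebf2 and Insig1), and of the 5 fatty acid genes 2 were higher (Scd2 and Elovl6) and 2 lower (Scd1 and Fasn). Of 28 members tested, 20 were higher and 5 lower, against 35.6% and 34.5% of 15496 genes, with a median of 0.56 (all genes 0.00376). Fdps, at 0.132 to 0.528 CPM after PBS, was too low to be tested. The early sterol sum was 119.7 ± 2.97 CPM after PBS and 192 ± 3.28 CPM after bleomycin, and the late sum 272 ± 1.78 and 384 ± 7.70 CPM. All 6 libraries are in one table.

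Dhcr7 (ENSMUSG00000058454, chromosome 7, 143823145 to 143848410) had the largest rise. It was 8.45, 8.31 and 7.33 CPM after PBS and 30.5, 28.01 and 24.4 CPM after bleomycin, without overlap (log2 change 1.74 ± 0.12 SE, adjusted p = 5.56e-12). Mvd, the decarboxylase gene that closes the mevalonate steps, was 19.9, 19.1 and 17.5 CPM after PBS and 38.3, 38.8 and 41.1 CPM after bleomycin (log2 change 1.02 ± 0.08 SE, adjusted p = 2.20e-10). All bleomycin libraries were above all PBS libraries for both genes. Insig2, which also retains SREBPs, was 8.85, 8.86 and 6.07 CPM with PBS against 15.1, 17.3 and 16.9 CPM with bleomycin (log2 change 1.0034 ± 0.14 SE, adjusted p = 8.05e-07). Sqle was 18.9, 16.9 and 16.2 CPM after PBS and 31.7, 32.3 and 30.95 CPM after bleomycin (log2 change 0.82 ± 0.09 SE, adjusted p = 2.93e-08). Lss, Tm7sf2, Ebp and Nsdhl rose by 0.92, 0.94, 0.82 and 0.79, and Hmgcs1 and Scap by 0.66 and 0.61, all without overlap. Msmo1, at 40.6, 42.2 and 44.02 against 48.2, 43.8 and 42.8 CPM, overlapped between the groups (log2 0.04 ± 0.07 SE, adjusted p = 0.631), as did Acat2 (log2 0.15 ± 0.13 SE, adjusted p = 0.313). The call of Mvk (log2 0.33 ± 0.12 SE, adjusted p = 0.0149) was lost without bleomycin library 2 (adjusted p = 0.0860).

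Scd1 was 558, 552 and 499 CPM after PBS and 82.1, 92.9 and 107 CPM after bleomycin, the largest change of any member in either direction here (log2 change -2.56 ± 0.08 SE, adjusted p = 1.13e-13). Scd2 rose meanwhile, from 75.4, 71.6 and 68.4 to 121, 128 and 126 CPM (log2 change 0.75 ± 0.06 SE, adjusted p = 5.11e-11), and so did Elovl6 (log2 0.68 ± 0.14 SE, adjusted p = 1.87e-04). Srebf2 fell from 222, 232 and 212 to 157, 178 and 178 CPM (log2 change -0.43 ± 0.06 SE, adjusted p = 4.57e-07). Sc5d, Fasn and Insig1 were lower by small amounts (log2 -0.39, -0.39 and -0.25). These 3 calls were lost with all 24 libraries in 1 fit (adjusted p = 0.104, 0.0628 and 0.0872). Acaca was not called (log2 0.26 ± 0.13 SE, adjusted p = 0.106), but passed as higher without PBS library 2 (adjusted p = 0.00402) or without bleomycin library 1 (adjusted p = 0.0240).

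Markers of other cell types also differed between the wild-type groups, and so did those of the IM gate. Of 10 IM or monocyte markers 8 were higher after bleomycin and 0 lower. Their sum was 6029 to 7064.5 CPM after PBS and 9222 to 10017 CPM after bleomycin. Lung epithelial markers summed to 4639 to 6819.5 CPM after PBS and 66.4 to 94.2 CPM after bleomycin, with 10 of 11 lower. Neutrophil markers summed to 7447 to 8879 and 1594 to 1647 CPM, and B cell markers to 1625 to 1810.1 and 490.4 to 566 CPM, with all lower. The 8 fibroblast markers were all lower too. Of 8 T and NK cell markers 4 were higher, with sums of 102 to 107 CPM after PBS and 132 to 143 CPM after bleomycin, and the AM marker sum was 677 to 719 and 2117 to 2412 CPM, with 4 of 11 tested higher and 5 lower. Epithelial cells of the alveolus make surfactant lipid and express Scd1 and Fasn themselves. The 10 cell cycle genes were all higher after bleomycin. Of 13 further lipid synthesis genes 6 were higher and 5 lower, Fads1 at log2 1.26 ± 0.10 SE and Acss2, an acetyl-CoA synthetase gene, at -1.36 ± 0.12 SE. Of 8 LXR receptors and targets 4 were higher and 3 lower. The part of these differences in the values of the 29 genes was not tested.

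**Figure D4:**
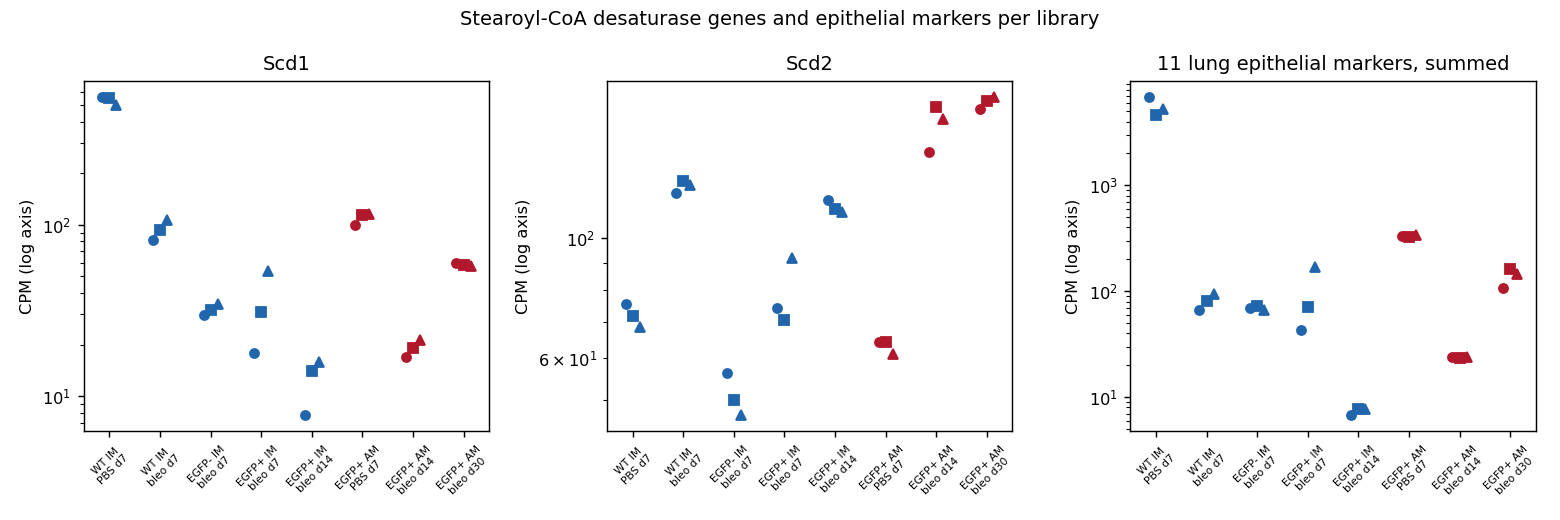
CPM of Scd1 and Scd2 and the summed CPM of 11 lung epithelial markers in each library, on log axes, blue for IMs and red for AMs, with circles, squares and triangles for replicates 1 to 3. Scd1 and the epithelial sum are both highest in wild-type IMs after PBS (499 to 558 CPM and 4639 to 6820 CPM), whereas Scd2 is highest in AMs after bleomycin. The neutrophil, fibroblast and dendritic cell marker sums, not drawn here, are also highest in wild-type IMs after PBS, with means of 8032, 292 and 316 CPM.

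Among day 7 reporter IMs, 1 of 7 early sterol genes, 4 of 11 late sterol genes, 1 of 6 regulators and 2 of 5 fatty acid genes were higher in the EGFP+ gate. Of the 29 genes, 8 were higher and 0 lower in EGFP+ cells, against 17.2% and 17.6% of 14967 genes, and the median was 0.03 (all genes -0.0153). At an unadjusted p under 0.05, 3 genes were lower, and DESeq2 called 2 lower, Srebf2 and Elovl6. A fit of these 2 groups alone called 5 lower and 9 higher. Dhcr7 was 9.97, 10.4 and 11.7 CPM in EGFP- and 23.2, 27.7 and 32.2 CPM in EGFP+ IMs, without overlap (log2 change 1.32 ± 0.24 SE, adjusted p = 0.00241). Insig2 was 8.90, 8.89 and 7.73 against 14.8, 16.2 and 15.1 CPM (log2 change 0.80 ± 0.11 SE, adjusted p = 3.61e-04), and Scd2 56.2, 49.97 and 46.9 against 74.3, 70.5 and 91.99 CPM (log2 change 0.58 ± 0.10 SE, adjusted p = 0.00147). Ebp and Fdft1 were higher by 0.45 and 0.40, with Ctsb, which overlaps Fdft1, at 2471 to 2555 CPM in EGFP- and 4475 to 4841 CPM in EGFP+ cells. The calls of Mvk, Nsdhl and Acaca (log2 0.43, 0.59 and 0.38) depended on single libraries: each was lost in 4 or more of the 6 fits that left out a library, at adjusted p values of 0.0547 to 0.166.

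Most other sterol genes were not called between these gates. Sqle was 42.6, 40.2 and 39.6 CPM in EGFP- and 39.5, 42.5 and 41.6 CPM in EGFP+ IMs (log2 -0.04 ± 0.16 SE), Hmgcs1 83.7, 76.9 and 81.8 against 79.97, 80.6 and 91.8 CPM (log2 0.01 ± 0.20 SE), and Cyp51 87.6, 102 and 95.7 against 79.3, 79.1 and 88.5 CPM (log2 -0.26 ± 0.36 SE). These groups overlapped or nearly met, and a missed threshold does not show that they were equal. The SEs come from the fit of all reporter IMs, so the spread of the day 14 EGFP+ IMs enters them as well. Cyp51 was 54.8, 155 and 148 CPM in those day 14 libraries. Neutrophil markers summed to 4592 to 6075 CPM in EGFP- and 2013 to 2758 CPM in EGFP+ cells, with 10 of 10 lower in EGFP+ cells, and all 10 cell cycle genes were higher there. Of 11 AM markers tested 7 were higher in EGFP+ cells, and the sum was 1703 to 1952 CPM in EGFP- and 1838 to 3154 CPM in EGFP+ cells. Of 10 dissociation stress genes 6 were lower, and of 7 dendritic cell markers 4. Of 8 LXR receptors and targets 5 were higher and 2 lower, with Smpdl3a and Abcg1 at log2 0.78 ± 0.11 SE and 0.58 ± 0.10 SE. The part of other cells in these values was not tested.

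From day 7 to day 14, sterol genes of EGFP+ IMs rose unevenly, and 1 library decided how many. With all libraries, 14 of 29 were higher and 2 lower at day 14, against 25.3% and 26.9% of 14967 genes, with a median of 0.51 (all genes -0.00456). Without day 14 library 1, 23 were higher and 1 lower. The 2 days are in different tables, so table and day cannot be told apart. Scaling by library totals alone moved the median of all genes by -0.221 and the share of higher genes among all calls from 48.4% to 27.8%, and left 10 members higher.

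Members that were called with and without library 1 include Mvk, at 13.6, 14.3 and 15.8 CPM at day 7 and 19.7, 20.8 and 22.4 CPM at day 14, without overlap (log2 change 0.76 ± 0.14 SE, adjusted p = 8.67e-04). Pmvk, the next kinase, was 37.5, 31.3 and 35.9 CPM at day 7 against 71.8, 59.2 and 42.6 CPM at day 14, where library 1 was the highest (log2 change 0.94 ± 0.14 SE, adjusted p = 1.61e-04). These kinases act in sequence on mevalonate. Among late genes, Ebp was 37.6, 40.4 and 40.3 CPM at day 7 against 53.2, 65.4 and 62.1 CPM at day 14 (log2 change 0.84 ± 0.11 SE, adjusted p = 8.04e-05). Nsdhl was 11.2, 14.3 and 15.3 CPM at day 7 against 17.4, 27.4 and 24.8 CPM at day 14 (log2 change 1.01 ± 0.20 SE, adjusted p = 0.00143). Dhcr7 was 23.2, 27.7 and 32.2 CPM at day 7 against 32.8, 49.7 and 58.8 CPM at day 14 (log2 change 1.01 ± 0.22 SE, adjusted p = 0.00378). In these 3 late genes library 1 was the lowest of its group and still above the day 7 libraries. Fdft1 was 72.2, 69.4 and 77.4 CPM at day 7 against 127, 137 and 119 CPM at day 14 (log2 change 1.03 ± 0.09 SE, adjusted p = 3.04e-06), with Ctsb at 4475 to 4841 CPM and 7153 to 7787 CPM. Scd2 was 74.3, 70.5 and 91.99 CPM at day 7 against 117, 113 and 112 CPM at day 14 (log2 change 0.76 ± 0.10 SE, adjusted p = 9.96e-05). Neither group pair overlapped, and library 1 did not stand apart in these 2 genes.

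Library 1 set apart the rest. Cyp51 was 79.3, 79.1 and 88.5 CPM at day 7 and 54.8, 155 and 148 CPM at day 14, where library 1 lay below the day 7 libraries and the others far above. It was not called with that library (log2 0.79 ± 0.36 SE, adjusted p = 0.100) and was called without it (log2 1.14, adjusted p = 4.84e-08). Idi1 (12.6, 34.1 and 30.4 CPM at day 14) and Sc5d (15.7, 40.7 and 35.2 CPM) had the same order, with log2 0.54 and 0.35 with library 1 and 0.88 and 0.67 without it. Acat2, Hmgcs1, Lss, Stard4, Srebf2 and Fasn also gained a call without it. Other members were called with all libraries but lost the call when a different library was left out: Mvd without day 14 library 2 or 3 (adjusted p = 0.0524 and 0.0520), Msmo1 without day 14 library 3 (adjusted p = 0.0523), Insig1 without either of these, Tm7sf2 also without day 7 library 3, and Sqle also without day 7 library 1 or 3. Scd1, at 17.9, 31.2 and 53.7 CPM at day 7 and 7.72, 13.98 and 15.9 CPM at day 14, was called lower (log2 -1.20 ± 0.41 SE, adjusted p = 0.0383), but in only 1 of the 6 fits without a library, the one without day 7 library 1. Elovl6 was lower (log2 -0.56 ± 0.16 SE, adjusted p = 0.0133) except without day 7 library 1 (adjusted p = 0.0537). Epithelial markers summed to 43.4 to 169 CPM at day 7 and 6.72 to 7.75 CPM at day 14, neutrophil markers to 2013 to 2758 and 133 to 202 CPM, and cell cycle genes to 526 to 648 and 313 to 341 CPM, and their part was not tested.

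Most sterol enzyme transcripts were lower in IMs than in AMs after PBS. After PBS, 20 of 28 members tested were lower in IMs and 5 higher, against 39.7% and 39.2% of 15828 genes, with a median of -0.79 (all genes -0.00689). The IMs of this comparison are wild-type and not gated by EGFP, and the AMs are EGFP+ cells of reporter mice, so gate, genotype and cell type cannot be told apart. Dhcr7 had the largest difference, at 8.45, 8.31 and 7.33 CPM in IMs and 47.9, 51.5 and 45.2 CPM in AMs (log2 change -2.59 ± 0.10 SE, adjusted p = 1.09e-14). Mvd was 19.9, 19.1 and 17.5 against 83.9, 89.99 and 85.5 CPM (log2 change -2.20 ± 0.07 SE, adjusted p = 1.88e-15). Hmgcs1, Lss and Cyp51 were lower in IMs, with log2 differences of -1.38, -1.50 and -1.02, and so were Scap and Srebf1 at -1.30 and -0.90. Scd1 was higher in IMs (log2 2.29 ± 0.06 SE, adjusted p = 2.50e-16), as were Sc5d (log2 0.92 ± 0.08 SE, adjusted p = 6.29e-09) and Srebf2 (log2 0.60 ± 0.05 SE, adjusted p = 8.71e-09). The calls of Scd2 and Fasn (log2 0.18 and 0.23) were lost without IM library 1 (adjusted p = 0.0759 and 0.0691) or AM library 3 (adjusted p = 0.0798 and 0.174), and that of Fasn also without IM library 2 or 3. Beside these values, epithelial markers summed to 4639 to 6819.5 in IMs and 325 to 337 CPM in AMs. Neutrophil markers summed to 7447 to 8879 and 133 to 207 CPM in turn. All 10 cell cycle genes were lower in IMs, and all 10 dissociation stress genes were higher. All 8 fibroblast markers and all 7 T and NK cell markers tested were higher in IMs. Of 8 B cell markers 6 were higher and 2 lower, and of 7 dendritic cell markers 6 and 1. The part of these differences was not tested.

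At day 14, both gates EGFP+ and in one table, 12 of 29 were lower in IMs and 1 higher, against 10.2% and 10.8% of 13460 genes, with a median of -0.73 (all genes 0.00533). With the replicate number as a block 20 were lower and 1 higher, and with all 24 libraries in 1 fit 24 were lower. Without AM library 2 or 3, 7 and 6 were lower. Over the 6 fits that each left out 1 library, IM library 1 among them, 6 to 15 were lower. Library totals alone moved the median of all genes by -0.114 and the share of higher genes among all calls from 51.3% to 38.3%. Hsd17b7 was 15.9, 18.1 and 11.6 CPM in IMs and 42.2, 50.1 and 38.8 CPM in AMs (log2 change -1.41 ± 0.17 SE, adjusted p = 2.39e-04). Hmgcs1 was 55.03, 101 and 76 against 224, 260.1 and 183 CPM (log2 change -1.39 ± 0.24 SE, adjusted p = 0.00344). Lss was 11.4, 15 and 13.2 against 27.9, 35.5 and 30.5 CPM (log2 change -1.12 ± 0.17 SE, adjusted p = 0.00106), and Sqle 38.3, 61.6 and 49.7 against 96.98, 132 and 114 CPM (log2 change -1.07 ± 0.20 SE, adjusted p = 0.00434). Mvd and Stard4 were lower too, at log2 -1.17 and -1.26. In all 6 genes the highest IM library was below the lowest AM library. The other 6 lower calls, of Acat2, Fdps, Msmo1, Nsdhl, Acaca and Scd2, each failed without 1 or more single libraries, at adjusted p values of 0.053 to 0.169. Fdft1 was the 1 member higher in IMs (log2 0.48 ± 0.14 SE, adjusted p = 0.0306), with Ctsb at 7153 to 7787 in IMs and 2793 to 2903 CPM in AMs, and its call was lost without IM library 2, AM library 1 or AM library 2 (adjusted p = 0.134, 0.116 and 0.0999). Of 10 cell cycle genes 9 were lower in IMs, with sums of 313 to 341 in IMs and 491 to 530.0 CPM in AMs, and of 7 neutrophil markers tested 4 were higher, with sums of 133 to 202 and 91.8 to 111 CPM. Of 8 B cell markers 3 were higher, and of 10 dissociation stress genes 4, and the part of these differences was not tested. Under the block Cyp51, Idi1, Insig1, Fasn, Dhcr7, Mvk, Tm7sf2 and Elovl6 were called lower as well, Cyp51 at log2 -1.14 (adjusted p = 0.0349).

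The gate differences after PBS and at day 14 were compared by a contrast of the 2 differences. It called 6 of 29 members higher and 9 lower, against 24.9% and 21.9% of 15981 genes, so that the members' count is near the share over all genes and only the single values are described. Dhcr7 (contrast 1.95 ± 0.27 SE, adjusted p = 5.55e-05) and Mvd (contrast 0.9977 ± 0.24 SE, adjusted p = 0.00386) were further below AMs after PBS than at day 14. Insig2, Scap, Ebp and Srebf1 had contrasts of 0.91, 0.99, 0.80 and 0.53. Scd1 was higher in IMs after PBS and had a gate difference of -0.47 ± 0.28 SE at day 14 (contrast -2.79 ± 0.30 SE, adjusted p = 6.75e-06). Sc5d (contrast -1.63 ± 0.40 SE, adjusted p = 0.00589), Srebf2 (contrast -0.88 ± 0.20 SE, adjusted p = 0.00234), Fasn (contrast -1.15 ± 0.33 SE, adjusted p = 0.0122) and Scd2 (contrast -0.61 ± 0.13 SE, adjusted p = 9.99e-04) moved the same way. The lower calls of Mvk, Stard4 and Insig1 were lost in 7 or more of the 12 fits that left out 1 library, and that of Fdps without wild-type PBS library 1 (adjusted p = 0.0520). Sqle, Hmgcs1, Msmo1 and Hsd17b7 were not called, with contrasts of -0.26 ± 0.24 SE, -0.04 ± 0.27 SE, -0.47 ± 0.28 SE and -0.19 ± 0.22 SE. Without day 14 IM library 1, 12 members were higher and 7 lower, and Cyp51 went from -0.01 to 0.43. Of 8 LXR receptors and targets 5 were higher in this contrast and 1 lower, Abcg1 and Lpcat3 by 1.97 ± 0.13 SE and 1.62 ± 0.13 SE. Day, genotype, table and EGFP gate of the IMs differ between the 2 gate comparisons and cannot be told apart.

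**Figure D5:**
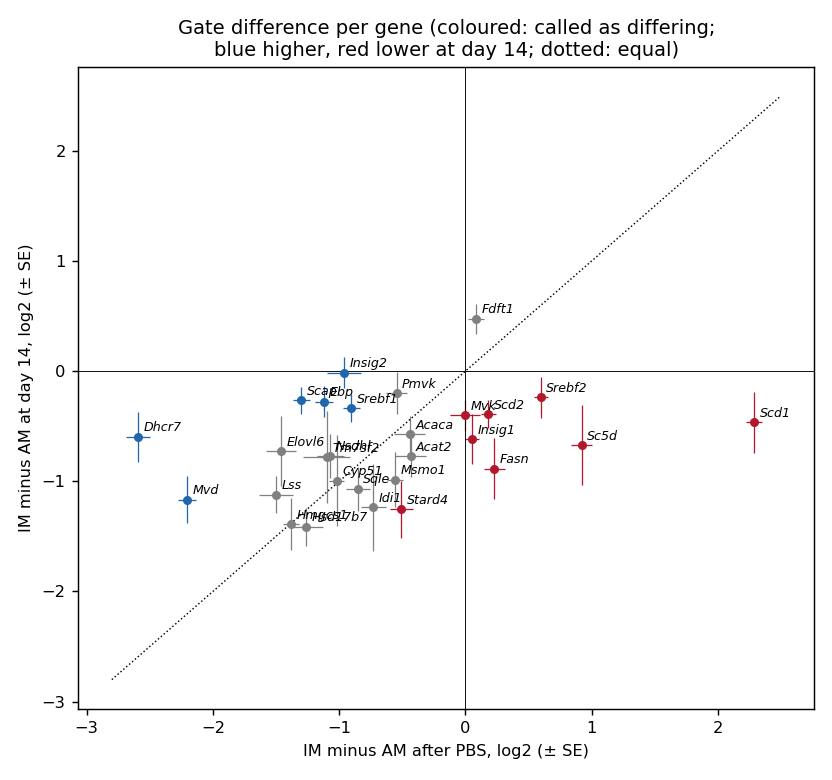
Difference between IMs and AMs in log2 (± SE) after PBS (x axis) and at day 14 (y axis) for the 28 members tested in both, with the dotted line where they are equal; blue and red genes were called as higher and lower in the contrast at day 14, and grey genes were not called. Dhcr7 and Mvd lie far to the left of 0 after PBS, Scd1 lies far to the right, and all genes but Fdft1 lie below 0 at day 14.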

How the data were processed

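Polyadenylated RNA of 24 sorted macrophage libraries was analysed in 8 groups of 3. The authors deposited 2 tables of raw read counts per gene, with 15 and 9 libraries and 49585 and 55487 genes. Per the submitters' processing notes, FastQC 0.11.5, Trimmomatic 0.38, HISAT2 2.1.0, SAMtools and featureCounts 1.6.3 were used with GRCm38. Strand setting and annotation release are not given in the sources used here, and 3 count columns that match no sample were not used.

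All tests ran on the 49022 shared gene IDs, which hold at least 99.486% of each library's counts. For 5 members (Hmgcs1, Fdft1, Srebf2, Scd1 and Scd2) the coordinates differ between the tables. Genes were kept with filterByExpr, scaled by TMM and tested with edgeR 4.0.16 (robust quasi-likelihood F test, R 4.3.3, limma 3.58.1), with Benjamini-Hochberg adjustment over all genes tested and a threshold of 0.05. Separate fits held the wild-type IMs, all reporter IMs, all AMs, the day 14 gates, the PBS gates and these 4 gate groups together. CPM values are per library total, whereas fold changes also use TMM factors, so a ratio of CPM can differ from the fitted value. The p-values depend on depth, which was 13450053 to 24580620 counts per library.

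Alternatives were DESeq2 1.42.0, library totals alone, upper-quartile factors, no low-count filter, only genes with unchanged gene models, other sets of libraries in the fit, the replicate number as a block, and leaving out each library. Unchanged gene models means the same chromosome, start, end and strand in both deposited tables. Exons were not compared. Same-numbered libraries deviated together only between the day 14 gates (correlations of 0.281, 0.215 and 0.257), where the block is printed beside the result. The scripts were tested on simulated counts. In the simulated wild-type comparison, genes simulated as unchanged made up a larger share of the calls than the adjusted p threshold allows. The members and all lists were chosen with earlier results of these data known. The genes named are the 29 members, and of other lists up to 4 genes with the smallest p in the comparison described; 1 further gene is not reported here.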

Additional observations from a re-analysis of the deposited data

Results flagged for a closer look

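For 15 of the 29 genes a test of the difference between the day 14 and PBS gate differences (IMs minus AMs) passed the threshold in edgeR. Over all genes tested, 24.9% were higher and 21.9% lower in this test, so the count of 6 higher and 9 lower members is near that background. Each value is the day 14 gate difference minus the PBS gate difference on the log2 scale. The values above 0 were those of Dhcr7 (1.95), Mvd (0.9977), Scap (0.99), Insig2 (0.91), Ebp (0.80) and Srebf1 (0.53). The values below 0 were those of Scd1 (-2.79), Fdps (-2.53), Sc5d (-1.63), Fasn (-1.15), Srebf2 (-0.88), Stard4 (-0.79), Insig1 (-0.71), Scd2 (-0.61) and Mvk (-0.44). Mvk kept its call in only 1 of 12 fits without a library, the one without day 14 IM library 3 (adjusted p up to 0.179 in the others). Stard4 kept it without day 14 IM library 2 or day 14 AM library 1 only (up to 0.158 in the others). Insig1 lost it without wild-type PBS IM library 1 or 2, day 14 AM library 2 or 3, or any PBS AM library (up to 0.124), and Fdps without wild-type PBS IM library 1. The coordinates of Scd1, Scd2 and Srebf2 differ between the tables, and PBS and day 14 libraries stand in different tables. The part of epithelial and neutrophil RNA in the PBS IMs in these values was not tested.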

How the results depend on the processing

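Counts of members called were within 1.5 times the reported ones under every alternative run, except as follows. For bleomycin in wild-type IMs, 3 were lower with unchanged gene models and 2 with all libraries in 1 fit. For EGFP+ against EGFP- IMs, 2 were lower with DESeq2, 5 with the compared groups only and 1 with all libraries in 1 fit. From day 7 to day 14 in EGFP+ IMs, 1 was lower without the low-count filter, with unchanged gene models and with the compared groups only. For AMs at day 14, 2 were lower with DESeq2, 4 with library totals alone, 3 with upper-quartile factors, 3 without the filter, 0 with unchanged gene models (a set without Scd1) and 2 with all libraries in 1 fit, and at day 30, 1 with unchanged gene models. Between AM days, 3 were higher with unchanged gene models, 5 lower without the filter and 1 lower with all libraries in 1 fit. Between day 14 gates, 0 were higher with library totals alone and with unchanged gene models, 20 lower with the replicate block and 24 lower with all libraries in 1 fit. For PBS gates 2 were higher, and for the difference of gate differences 4 lower, with unchanged gene models.

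Leaving out 1 library at a time gave 5 to 7 higher for EGFP gates, 10 to 23 higher and 1 to 2 lower for IM days, 1 to 2 lower for AMs at day 14, 2 to 7 lower between AM days, 0 to 1 higher and 6 to 15 lower for day 14 gates, 3 to 5 higher for PBS gates, and 6 to 12 higher and 5 to 8 lower for the difference of gate differences. There, Cyp51, at -0.01 with all libraries, ranged from -0.16 to 0.43, the upper value (adjusted p = 0.0202) without day 14 IM library 1. Over single members and alternatives, 3375 values kept their side of the threshold. Those called kept their direction as well, whereas values not called in either fit could change sign. A further 120 gained a call and 144 lost one. The last 1, that of Cyp51, was not called in the main fit and was called with the opposite sign. The causes were not tested, beyond the fewer genes or libraries of some settings.

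In the comparisons whose libraries share only a number, the replicate block left the members' higher and lower counts at 20 and 5 (wild-type IMs), 7 and 0 (EGFP gates), 14 and 2 (IM days), 24 and 1 (AMs at day 14), 24 and 2 (AMs at day 30), 6 and 2 (AM days) and 5 and 20 (PBS gates). For the difference of gate differences, which holds the day 14 libraries that deviate together, the block gave 7 higher and 9 lower. Fdps held only 0.132 to 1.86 CPM, so its values rest on few reads, and the reason for its low level was not tested.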
